A study of Mus musculus with 24 samples.

Results

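ND5 (mt-Nd5) is the longest of the complex I genes carried by mouse mitochondrial DNA (mtDNA), and its cytosines were examined here on both strands. In build mm10 (GRCm38) the gene lies at chrM:11742-13565 on the plus strand, is 1824 bp long and codes for 607 residues in a single exon without introns or UTRs in the annotation. Its last 14 bp overlap the oppositely oriented gene ND6 (chrM:13552-14070) and were left out. The members are therefore all listed cytosines of chrM:11742-13551, 1810 bp, which number 673 of the 5829 cytosines listed for mtDNA. Of these, 493 lie on the light (L) strand, which has the sequence of the ND5 mRNA and is the reference strand, and 180 on the heavy (H) strand. All cytosines that the reference sequence has in this interval are listed.

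The data are 24 libraries made by post-bisulfite adaptor tagging (PBAT), in which adaptors are attached after the bisulfite reaction, so that broken template molecules can still be sequenced. The 10 ESC libraries came from 3 preparations of mitochondria of the mouse embryonic stem cell (ESC) line E14, for which no strain is given. From C57BL/6J mice, 5 brain libraries came from 2 preparations of mitochondria and 5 liver libraries from 2 preparations, with no age or number of animals stated. The 4 synthetic libraries came from 1 preparation of mtDNA generated by PCR and labelled C57BL/6J, which carries no 5-methylcytosine (5mC) and serves as the control. Every template was treated with 9.2M bisulfite in the presence of spiked-in lambda DNA, and the mitochondria of the native samples had been purified and treated with benzonase, a nuclease that degrades nucleic acids outside the organelle. Libraries are named here by source, preparation and minutes of treatment, so that E1_60 is ESC preparation 1 after 60 min, with B for brain, L for liver and S for synthetic. E1, E2, B1, L1 and S1 were each treated for 5, 15, 40 and 60 min, E3 for 60 and 90 min, and B2 and L2 for 60 min only.

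Complex I passes electrons from NADH to ubiquinone and pumps protons across the inner mitochondrial membrane. The protein of ND5 is one of its membrane subunits and belongs to the antiporter-like part through which protons move. Bisulfite turns unpaired, unmethylated cytosines into uracil, which is read as thymine, whereas 5mC stays a cytosine. A cytosine that is read as cytosine may therefore have been methylated or may have escaped the reaction, and the files do not separate these. For L-strand reads the paper names a further possibility. If products made from H-strand fragments without cytosine were copied again during library production, their reads would align to the L strand and count as unconverted. This was not tested here. The unconversion rate of a site is the share of its reads, in percent, that still showed a cytosine there.

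The L strand of ND5 holds stretches whose cytosines were nearly all read as cytosine, and others whose cytosines were nearly all converted. The interval was divided into 10 windows of 181 nt, and the sequences of the highest and the lowest L-strand window are shown because the L-strand results turn on them. Both are the L strand from 5′ to 3′, and capitals mark cytosines with a mean unconversion rate of at least 90% over the 60 min libraries that cover them with 10 or more reads.
Window 1, chrM:11742-11922: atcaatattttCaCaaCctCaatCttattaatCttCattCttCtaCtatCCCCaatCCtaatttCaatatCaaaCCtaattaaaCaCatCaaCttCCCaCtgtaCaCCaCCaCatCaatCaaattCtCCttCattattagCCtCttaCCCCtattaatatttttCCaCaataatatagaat
Window 6, chrM:12647-12827: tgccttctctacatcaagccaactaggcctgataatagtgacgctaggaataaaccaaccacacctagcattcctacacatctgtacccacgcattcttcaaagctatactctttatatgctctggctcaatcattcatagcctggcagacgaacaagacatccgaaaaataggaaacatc
Each of them has 52 cytosines. In window 1, 50 of the 52 are in capitals, and the stretch has 3 guanines. In window 6, 49 of the 52 have a value and none of these is in capitals, and the stretch has 26 guanines.

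Between L-strand sites that follow each other among those with a value, the largest rise was found from position 13110 to position 13142, which are 32 nt apart. The 5 cytosines between them, at chrM:13114-13132, had fewer than 10 reads in all 8 libraries of 60 min. This stretch was chosen after its values were seen and is shown, marked in the same way, because it holds both kinds of site. It has 40 cytosines, of which 28 have a value, and the others are in lower case because they have none.
Largest step, chrM:13060-13192: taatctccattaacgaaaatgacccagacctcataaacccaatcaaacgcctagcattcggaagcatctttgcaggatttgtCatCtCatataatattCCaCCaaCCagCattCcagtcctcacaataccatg
At position 13110, 0 to 2.9% of reads were unconverted in the 8 libraries of 60 min, at coverages of 7 to 284 reads. At position 13142, 95 to 100% were unconverted, at coverages of 7 to 52 reads. The step was present in synthetic mtDNA, with 0.4% in 284 reads on its left and 100% in 52 reads on its right.

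After 60 min, the mean unconversion rate of the ND5 L strand was 44.80% in E1_60, 52.45% in E2_60, 48.29% in E3_60, 50.15% in B1_60, 64.35% in B2_60, 57.39% in L1_60 and 51.93% in L2_60. Synthetic mtDNA had 44.81%. The native libraries thus spread over nearly 20 points, with B2_60 highest and E1_60 next to the control. The native mean was 52.77% ± 6.41 (SD, n = 7 preparations), 7.96 points above the synthetic value, with 6 of 7 preparations above it, and the difference did not pass a two-sided exact permutation test (p = 0.375; 7 against 1 cannot go below 0.125). The difference was 1.37 points with a minimum of 30 reads, 2.67 points with reads pooled over sites, -1.63 points without sites of 50% or more and 1.26 points in the libraries of 40 min. Only sites with at least 10 reads in a library entered its mean, and their number differed widely between libraries. Of the 493 L-strand sites, 388 were used in S1_60, 335 in E1_60 and E3_60, 318 in B1_60, 306 in L2_60, 294 in L1_60, 259 in E2_60 and 127 in B2_60.

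The SD over native preparations was 0.64 points, in place of 6.41, when the same sites were averaged in each of them. In all 8 libraries of 60 min, 124 L-strand sites had at least 10 reads. Over these sites, the rate was 62.27% in E1_60, 61.79% in E2_60, 63.47% in E3_60, 63.18% in B1_60, 63.48% in B2_60, 62.93% in L1_60 and 62.48% in L2_60. It was 61.23% in S1_60. The native mean was 62.80% ± 0.64 (SD, n = 7), and all 7 preparations lay above the synthetic library, by 1.57 points on average (two-sided exact permutation test, p = 0.125, the smallest that this design allows). At 40 min the order was the other way round. Over the same sites S1_40 had 61.82%, and the 4 native libraries had 59.95% (B1_40), 60.65% (E1_40), 61.12% (E2_40, 121 sites) and 61.51% (L1_40). At the single site level, 43 of the 124 sites were under 10% in S1_60 and 62 were at 90% or more.

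**Figure D1:**
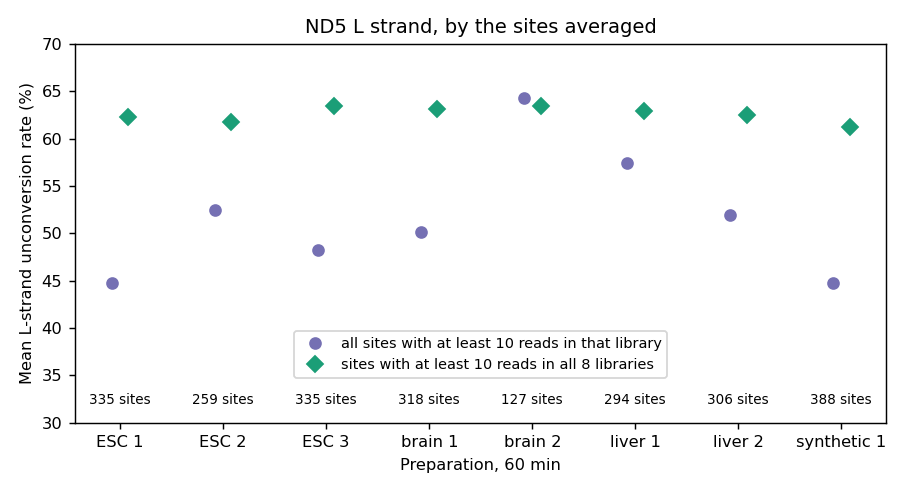
Mean L-strand unconversion rate of ND5 (vertical axis, in percent, starting at 30) in the 8 preparations after 60 min. Circles average all sites with at least 10 reads in that library, whose number is printed at the bottom and runs from 127 to 388, and diamonds average the 124 sites with at least 10 reads in all 8 libraries. The circles range from 44.80 to 64.35% and the diamonds from 61.23 to 63.48%.

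All 180 H-strand sites had at least 10 reads in each library of 60 min, and nearly all were converted. The mean rate was 0.362% in E1_60, 0.342% in E2_60, 0.567% in E3_60, 0.399% in B1_60, 0.459% in B2_60, 0.450% in L1_60, 0.489% in L2_60 and 0.331% in S1_60. All 7 native values were above the synthetic value. The native mean of 0.438% ± 0.078 (SD, n = 7) exceeded it by 0.107 points, which did not pass the two-sided exact permutation test (p = 0.25). When reads were pooled over sites, the native libraries ranged from 0.262% (E1_60, 95% Wilson interval 0.233 to 0.294%) to 0.449% (B2_60, 0.387 to 0.522%), and S1_60 had 0.310% (0.289 to 0.332%). Of the 7 native values, those of E1_60 and E2_60 were then below the synthetic one, with 0.301% in E2_60. Across sites, 167 of 180 had a mean under 1% over the 8 libraries, 4 had a mean of 0, and the highest value of any site in any library was 5.2%.

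The strands differed in every preparation. Over the 8 preparations, the L strand averaged 51.77% and the H strand 0.425%, a difference of 51.35 points in the same direction in 8 of 8 (two-sided exact sign-flip permutation test, p = 0.00781, the smallest possible; adjusted p = 0.0247 over the 19 exact tests reported here). Without sites of 50% or more the difference was 5.04 points. These L-strand rates are without the paper's exclusion of unconverted reads. The strands also differed in depth. Of the cytosine calls in ND5, the L strand received 35.6 to 42.1% at 5 min and 15.9 to 25.1% at 60 min, although it holds 493 of the 673 cytosines. In the 60 min libraries the median coverage of an ND5 cytosine was 3 (B2_60) to 47 (S1_60) reads on the L strand and 114 (B2_60) to 918 (S1_60) reads on the H strand.

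**Figure D2:**
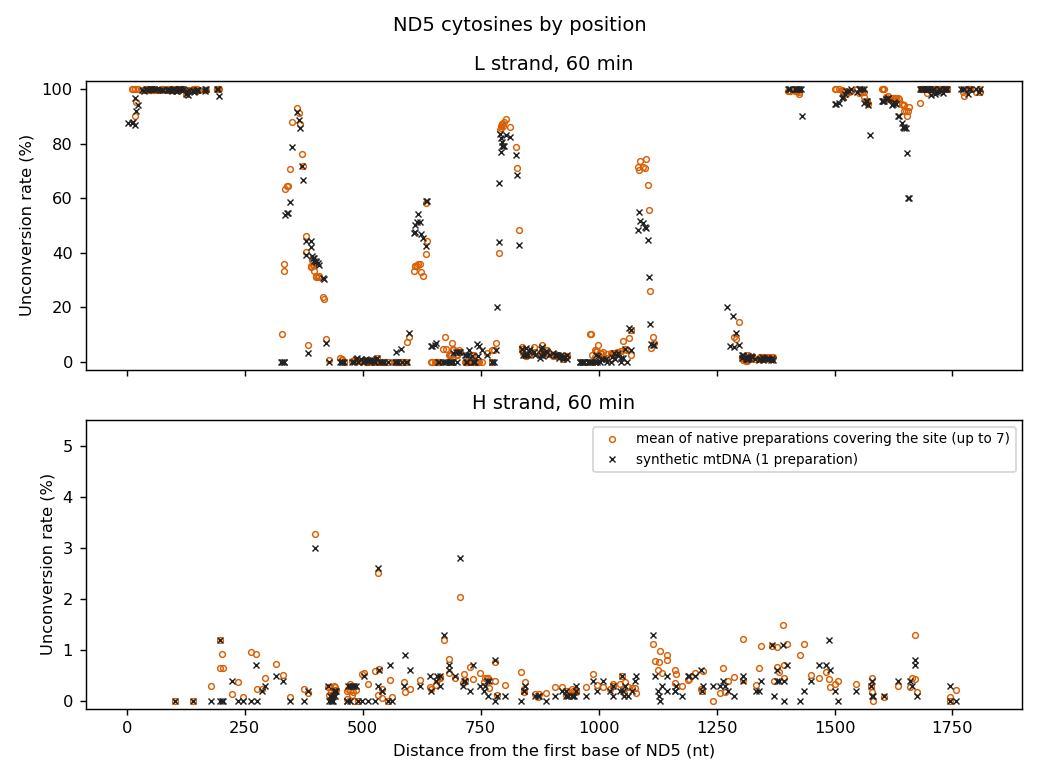
Unconversion rate (vertical axes, in percent) of each ND5 cytosine with at least 10 reads after 60 min against its distance from the first base of the gene in nt, with the L strand above and the H strand below, on separate scales. Circles are means over the native preparations that cover the site and crosses are the synthetic library. L-strand sites near both ends of the gene lie near 100% and most of those between lie near 0, and no H-strand mean exceeds 3.27%.

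L-strand sites were sorted by their rate in S1_60, in which 388 had a value. In synthetic mtDNA 130 sites had a rate of 90% or more, 77 a rate between 10 and 90%, and 181 a rate under 10%. The native means followed the same order. Of the first group, 127 sites had a native value, all 127 were at 90% or more, and the group averaged 99.24% ± 0.27 (SD, n = 7) against 98.55% in S1_60. The group under 10% averaged 2.17% ± 0.92 against 1.66%, with 163 of its 170 sites that had a native value also under 10%. The intermediate group was the most variable, at 61.98% ± 11.7 against 55.51%. Each library averaged only the sites that it covers with at least 10 reads, so these means are not over the same sites. In the 4 native preparations of the time course, which leave out the sparsely covered B2, the intermediate group had 59.16% ± 6.46 at 60 min. Across the 368 sites with values in both, the native means correlated with S1_60 with Pearson's r = 0.990, as a description of sites that share libraries and sequence, and 27 differed by more than 10 points. For the H strand r was 0.772 over 180 sites. No H-strand site exceeded 5.2% in any library of 60 min, so a difference of more than 10 points was not possible there.

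The groups also differed in the guanines around their sites, which had not been used to form them. The median number of guanines within 25 nt on the same strand was 2 for the sites of 90% or more, 4 for the intermediate sites and 7 for the sites under 10%. Split at the median of 5 guanines, 172 L-strand sites had more guanines around them and the other 321 did not. Those with at least 10 reads in a library averaged 7.33% and 68.94%, respectively. The difference of -61.61 points was seen in 8 of 8 preparations (two-sided exact sign-flip permutation test, p = 0.00781, adjusted p = 0.0247). It was -5.90 points without sites of 50% or more. Split at 13 guanines, the 82 H-strand sites with more guanines averaged 0.495% and the other 98 averaged 0.366%. That difference of 0.129 points had the opposite sign and was present in 8 of 8 preparations (exact sign-flip permutation test, p = 0.0156, adjusted p = 0.0424). ND5 is poor in guanine on its L strand, which holds 9.94% guanine against 12.4% in all mtDNA and 27.2% cytosine against 24.4%.

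Cytosines followed by guanine (CG), the usual target of mammalian DNA methyltransferases, were compared with the others (CH, where H is A, C or T). On the L strand, 30 of the 493 cytosines are in CG. Over 8 preparations the CG sites averaged 17.01% and the CH sites 53.81%, a difference of -36.80 points, in 8 of 8 preparations (two-sided exact sign-flip permutation test, p = 0.00781, adjusted p = 0.0247). It was -67.85 points with reads pooled over sites and -3.20 points without sites of 50% or more. The 30 H-strand CG sites averaged 0.336% and the CH sites 0.443%, a difference of -0.107 points in 8 of 8 (exact sign-flip permutation test, p = 0.00781, adjusted p = 0.0247), or -0.0624 points with pooled reads. CG sites lie by definition next to a guanine, and their part in the guanine split was not tested. The sign-flip tests of CG and of guanines cover the spread between preparations, which all carry the same sites. They do not cover the spread between sites. Of the 23 L-strand CG sites with a value, 17 averaged under 10% and 1 averaged 90% or more. The 3 highest were L13344 with 99.27% over the 6 libraries that cover it, L12541 with 86.89% over 8 and L12087 with 68.83% over 7. The 3 lowest were L12267 with 0% in all 8 libraries, L12281 with 0% over 3 and L12218 with 0.138% over 8. In synthetic mtDNA the 3 highest had 95.6% (68 reads), 79.3% (58 reads) and 58.6% (58 reads). The H-strand partners of these 3 sites, the cytosines opposite the same CG, averaged 0.0875%, 0.288% and 0.075%.

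Of the non-CG contexts on the L strand, native CHG sites averaged 22.51% ± 6.07 and CHH sites 57.53% ± 6.46 (SD, n = 7), beside 19.78% and 49.21% in S1_60. Native H-strand CHG sites averaged 0.653% ± 0.119, above CHH with 0.364% ± 0.080 and CG with 0.347% ± 0.066, and S1_60 showed the same order with 0.488%, 0.278% and 0.260%. By codon position, the native L-strand means were 50.30% ± 8.40, 55.79% ± 6.09 and 52.13% ± 5.86 for codon positions 1, 2 and 3 (SD, n = 7), beside 40.46%, 47.88% and 45.51% in S1_60, and their differences were not tested. Native libraries had fewer L-strand sites with at least 10 reads than S1_60, so these native and synthetic means are not over the same sites. Over the L-strand sites covered in all 8 libraries, native exceeded synthetic by 1.57 points.

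The 3 H-strand sites with the highest means over the 8 libraries of 60 min were all in the CHG context. They are shown on the H strand from 5′ to 3′ with 10 nt on either side, because they are the largest values on that strand, together with the only site of ND5 called different between native and synthetic mtDNA. The capital marks the measured cytosine.
H12141, chrM:12131-12151: atgttgttggCtgaggtgagg
H12274, chrM:12264-12284: tccgatgtctCcgatgcggtt
H12447, chrM:12437-12457: ccttctattgCtgatggtagt
H12577, chrM:12567-12587: ggctccgaggCaaagtatagt
H12141 had 3.5% in E1_60, 4.6% in E2_60, 3.1% in E3_60, 3.0% in B1_60, 2.7% in B2_60, 2.7% in L1_60, 3.3% in L2_60 and 3.0% in S1_60 (989 reads). The synthetic value lies within the native range, and S1_40 had 5.1%. H12274 ranged from 0.4% in B1_60 to 5.2% in E3_60, on 1 to 6 unconverted reads per native library, beside 2.6% in S1_60. H12447 ranged from 1.1% in E3_60 to 3.4% in L1_60, beside 2.8% in S1_60 (2267 reads). In each of the 3 sites the synthetic library thus lies inside the range of the native ones.

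Single sites were then compared between native and synthetic mtDNA by Fisher's exact test on unconverted and converted reads summed over the native libraries of 60 min, with Benjamini-Hochberg adjustment over 4129 tested sites of mtDNA. None of the 277 L-strand sites of ND5 that could be tested passed an adjusted p of 0.05 in either direction, where 0.532% of the L-strand sites of mtDNA were called higher and 1.24% lower in native mtDNA. Of the 180 H-strand sites of ND5, 1 was called higher and none lower, beside a background of 0.0534% in each direction, which is 1 site each in all mtDNA. Unadjusted, 22 of the 277 L-strand and 7 of the 180 H-strand sites of ND5 had p under 0.05. The unadjusted share over all mtDNA was not computed, so these counts are not read as particular to ND5. The median difference was 0.0946 points over the L-strand sites of ND5 and 0.0690 points over its H-strand sites, against 0 and 0.0327 points over all sites tested on each strand. Limma on the logit of each preparation's rate called no site of ND5 and none in all mtDNA. Of the 457 ND5 sites fitted, 26 had an unadjusted p under 0.05, again without a share over all mtDNA.

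The called site, H12577 in the CHH context, had 28 unconverted reads of 5305 in native mtDNA and 0 of 2137 in S1_60 (adjusted p = 0.0150 by Fisher's exact test), a count of 0 that allows a rate of up to 0.140%. This test treats reads as independent molecules and covers counting error in 7 libraries against 1, not the spread between synthetic preparations. The native libraries had 0.3% in E1_60, 0.6% in E2_60, 1.0% in E3_60, 0.9% in B1_60, 0.5% in B2_60, 0.6% in L1_60 and 0.1% in L2_60. These rates rest on 2, 2, 9, 6, 2, 6 and 1 unconverted reads, in that order. All 7 were above the control, but beside a count of 0 a single unconverted read is enough for that. The 0.1% of L2_60 lies under the 0.140% that the control allows. In S1_40, however, the same site was unconverted in 0.5% of 915 reads, beside 0.3 to 0.8% in the 4 native libraries of 40 min.

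No difference between ESC and tissue mtDNA in ND5 passed its test. On the L strand, the ESC mean was 48.52% ± 3.83 (SD, n = 3) and that of brain and liver together 55.96% (n = 4), a difference of -7.44 points (two-sided exact permutation test, p = 0.171; the smallest possible is 0.0286). Over the 124 sites covered in all 8 libraries the difference was -0.508 points. Their H-strand means were 0.424% and 0.449% (exact permutation test, p = 0.686). Brain mtDNA averaged 57.25% ± 10.04 (SD, n = 2) on the L strand against 50.97% in the other 5 native preparations (exact permutation test, p = 0.286), and without the sparsely covered B2 the difference between them was -0.819 points. It was 0.744 points over the 124 sites, 10.82 and 13.27 points with minima of 20 and 30 reads, and 12.03 points with pooled reads. For the H strand brain had 0.429% and the others 0.442% (exact permutation test, p = 0.952). In a fit by limma over 3951 sites of mtDNA, none of the 262 L-strand and 180 H-strand ND5 sites differed between ESC and tissue. The background is 0.0% in either direction. Unadjusted, 7 and 4 of these ND5 sites had p under 0.05, and the unadjusted share over all mtDNA was not computed. Fisher's exact test on summed reads called none in ND5 either, beside 0.0253% of the sites of mtDNA.

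Most of the conversion of ND5 took place within 15 min. On the L strand, the 4 native preparations went from 73.36% (E1), 78.59% (E2), 74.13% (B1) and 75.86% (L1) at 5 min to 54.97%, 45.71%, 48.66% and 47.34% at 15 min. Synthetic mtDNA went from 76.05 to 46.64%. The mean native change was -26.31 points, seen in 4 of 4 preparations and with groups that do not overlap (two-sided exact permutation test, p = 0.0286, the smallest possible; adjusted p = 0.0543). It was -17.21 points over the 124 sites covered in all 8 libraries of 60 min and -10.73 points with reads pooled over sites. Between 465 and 474 sites were used in the native libraries of 5 min, and between 331 and 373 in those of 15 min. On the H strand, the same preparations went from 32.35%, 34.09%, 32.17% and 32.56% to 10.90%, 3.60%, 3.67% and 3.61%, and S1 from 29.55 to 3.63%. The change there was -27.35 points (exact permutation test, p = 0.0286, adjusted p = 0.0543). With the preparation as a block, both changes had p = 0.125 (exact permutation test), which is the smallest value that 4 pairs allow.

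After 15 min the strands differed in their course. From 15 to 40 min, the L-strand mean moved by -0.74 points (exact permutation test, p = 0.8), and from 40 to 60 min by 2.77 points (exact permutation test, p = 0.371), neither of which passed its test. Over the 124 sites the changes were -2.32 points (exact permutation test, p = 0.0571) and 1.74 points (exact permutation test, p = 0.0286). Both p-values are unadjusted and take the libraries as unpaired, and with the preparation as a block 4 pairs allow none under 0.125. Synthetic mtDNA moved the other way over these sites, with 60.76% at 15 min, 61.82% at 40 min and 61.23% at 60 min. The H strand fell further from 15 to 40 min, to 0.482% (E1), 0.362% (E2), 0.491% (B1) and 0.443% (L1), a mean change of -5.00 points (exact permutation test, p = 0.0286, adjusted p = 0.0543; with the preparation as a block p = 0.125). At 15 min, the 10.90% of E1_15 stood apart from the 3.60 to 3.67% of the others, and without E1 the change was -3.19 points. From 40 to 60 min the H strand changed by -0.056 points (exact permutation test, p = 0.229). In the 1 library of 90 min, E3_90, the H strand had 1.47% beside 0.567% in E3_60 over the same 180 sites, with a median of 105.5 reads per site against 331.5. Over the 163 L-strand sites covered in both, E3 had 43.83% at 60 min and 44.75% at 90 min. These are single libraries, so no test was made.

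**Figure D3:**
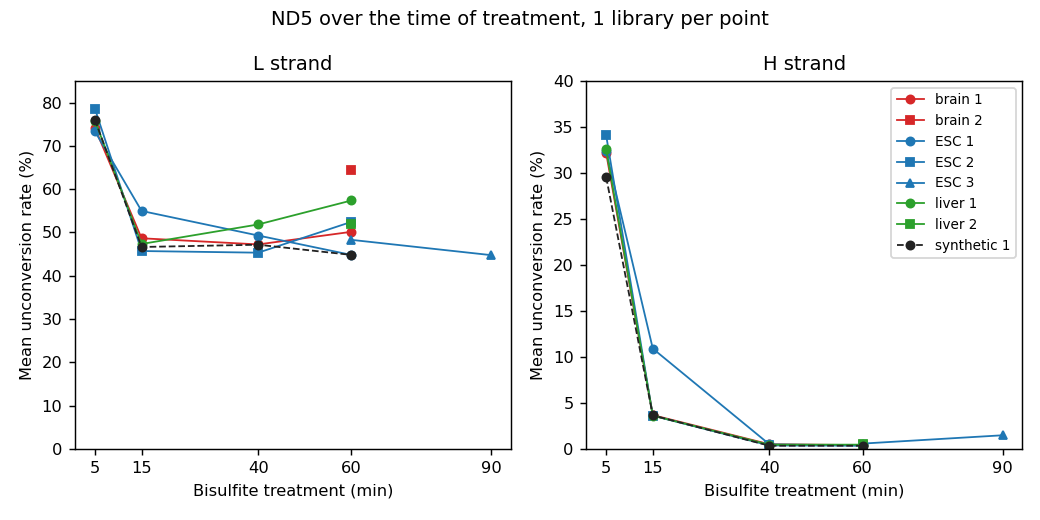
Mean unconversion rate of ND5 (vertical axes, in percent) against the minutes of bisulfite treatment for the L strand on the left and the H strand on the right, with 1 point per library and lines joining the libraries of a preparation. Synthetic mtDNA is drawn with dashes. The L strand levels off near 50% after 15 min and the H strand reaches values under 0.6% by 40 min, with E1_15 at 10.90% apart from the others on the H strand.

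Followed by group, the L-strand sites of 90% or more were near complete unconversion at each time. They averaged 98.60% ± 0.41 at 5 min, 98.37% ± 0.50 at 15 min, 98.78% ± 0.49 at 40 min and 99.16% ± 0.28 at 60 min (SD, n = 4 native preparations), and 99.46%, 98.89%, 99.17% and 98.55% in synthetic mtDNA. The sites under 10% started at 53.97% ± 2.64 and had 6.83% ± 4.58 at 15 min and 2.20% ± 0.91 at 40 min, beside 52.48%, 5.69% and 2.13% in synthetic mtDNA. The groups were formed on S1_60, so that its own value at 60 min is fixed by the choice.

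H-strand sites differed in how fast they were converted. At 5 min, the native means of single sites ran from 3.18% to 53.8%. H12856 was the slowest with 53.8%, beside 50.9% in S1_05, and still had 11.2% at 15 min in the same 4 native preparations and 1.11% at 60 min in all 7. H12521 and H12730 followed with 49.9% and 48.0%. The fastest were H11843 with 3.18%, H11881 with 11.1% and H12526 with 14.4%, beside 2.7%, 7.5% and 13.7% in S1_05. H11843 and H11881 both lie in window 1, which has 3 H-strand cytosines in all.

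By window, the L strand was nearly unconverted at both ends of ND5. Window 1 had 99.26 to 99.85% in the 7 native libraries and 98.41% in S1_60, and it stood at 98.75 to 99.68% in synthetic mtDNA at the earlier times. Window 10 (chrM:13371-13551) had 97.63 to 99.75% in native mtDNA and 95.27% in S1_60, and window 9 next to it had 96.95 to 99.19% and 96.35%. In window 10, the 97.63% of B2_60 rests on 3 of 48 sites, beside 44 used in S1_60. Window 6 was the lowest, with 7.03% in E1_60, 8.03% in E2_60, 7.47% in E3_60, 7.24% in B1_60, 12.5% in B2_60, 8.09% in L1_60, 6.81% in L2_60 and 3.63% in S1_60. The 12.5% of B2_60 rests on 13 sites, beside 49 used in S1_60. Window 6 was followed by window 4 (chrM:12285-12465), with 8.26 to 40.7% in 6 native libraries and 12.97% in S1_60. In window 4, 8 to 47 sites were used in these native libraries and 48 in S1_60. Windows 1 to 10 have, in that order, 3, 15, 33, 21, 20, 26, 21, 19, 13 and 9 guanines on the L strand. The guanine count did not order the windows throughout. Window 3 has the most and averaged 17.87% over the 8 libraries, against 7.59% in window 6. Window 7 has as many as window 4 and averaged 54.83% against 16.67%, but few of its sites had a value. Of its 53 sites, 10 were used in S1_60 and 3 to 10 per native library. The stretch chrM:12866-13010, without a value in any library of 60 min, holds 20 guanines, so the count of window 7 is mostly that of unmeasured sequence.

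In 6 of the 8 L-strand windows that had a value in all 8 libraries, every native preparation lay above S1_60. This is read against 25.8% of the L-strand windows of mtDNA with ND5 included, and 18.97% (11 of 58) of those outside ND5. In none of the 8 ND5 windows was every one lower, beside 1.52%. Every one was higher in windows 1, 2, 6, 7, 9 and 10, and windows 4 and 8 had no value in B2_60. The count varied with the sites and libraries used. It was 2 with a minimum of 20 reads, 1 with 30 reads, 2 in the libraries of 40 min and 3 over sites covered in all 8 libraries. In windows 2 and 7, where the differences were largest (84.96% ± 10.6 against 53.05%, and 58.24% ± 15.5 against 30.92%), only 2 to 12 and 3 to 10 sites per native library had a value. Windows 6, 9 and 10 had 13 to 40, 16 to 31 and 3 to 43 such sites, beside 49, 32 and 44 in S1_60. On the H strand, every native preparation was higher in only 1 of 10 windows, beside 6.82% of the H-strand windows of mtDNA (6.41% outside ND5). In none of the 10 was every one lower, beside 7.95%. The window called higher was window 8 (chrM:13009-13189). It had 0.684% in E1_60, 0.779% in E2_60, 0.795% in E3_60, 0.653% in B1_60, 1.23% in B2_60, 0.400% in L1_60, 0.711% in L2_60 and 0.384% in S1_60. L1_60 thus lay just above the control, and the count was 5 of 10 windows in the libraries of 40 min. Window 8 had the highest H-strand mean over the 8 libraries, 0.704%, followed by window 7 with 0.524%, and windows 1 and 6 had the lowest with 0.0875% and 0.257%.

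**Figure D4:**
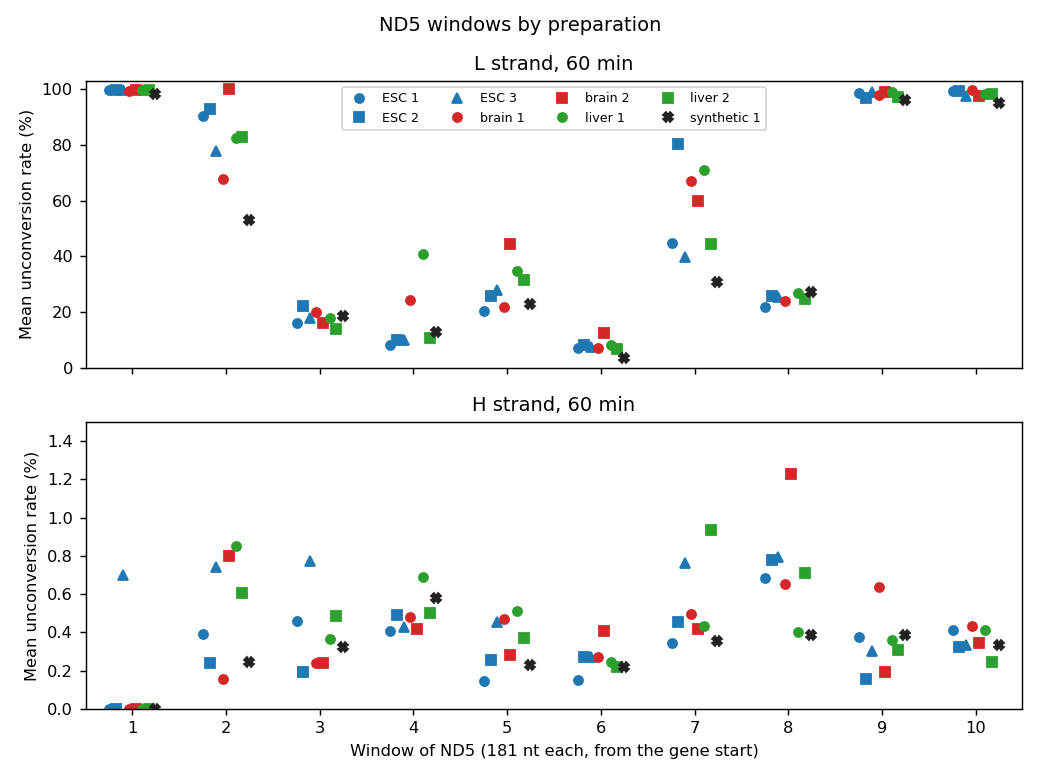
Mean unconversion rate (vertical axes, in percent) of the 10 windows of ND5 after 60 min, with 1 symbol per preparation, for the L strand above and the H strand below, on separate scales. Windows 1, 9 and 10 of the L strand lie above 95% in all 8 preparations and window 6 lies between 3.63 and 12.5%. Windows 2 and 7 show the widest spread on the L strand.

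Parts of the L strand had too few reads for a value after 60 min. In the 60 min libraries, 105 of the 493 L-strand sites had fewer than 10 reads in all 8. They lie mostly in 3 runs, 28 sites at chrM:11940-12066, 44 sites at chrM:12866-13010 and 17 sites at chrM:13174-13241. At 5 min, 99 of the 105 sites had at least 10 reads in synthetic mtDNA, with a median of 21 reads, and averaged 82.87% unconverted. No statement on their rate after 60 min can be made, and no H-strand site of ND5 was without a value.

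Against the other cytosines of mtDNA, ND5 stood higher on the L strand and lower on the H strand. Its L-strand mean over 8 preparations was 51.77% against 29.26% in the rest of mtDNA, 22.51 points higher in 8 of 8 (two-sided exact sign-flip permutation test, p = 0.00781, adjusted p = 0.0247). Its H-strand mean was 0.425% against 0.607%, a difference of -0.182 points in 8 of 8 (exact sign-flip permutation test, p = 0.00781, adjusted p = 0.0247). With pooled reads these differences were 38.28 and -0.114 points. With sites of 50% or more left out everywhere, the L-strand difference was 1.22 points (exact sign-flip permutation test, p = 0.133), which did not pass the threshold.

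Among the 13 protein and 2 rRNA genes of mtDNA, each taken without overlaps, ND5 ranked 6th on the L strand. ND6 (99.5%), ATP8 (98.97%), ND2 (79.22%), ND4 (66.63%) and ATP6 (61.38%) were higher over the 8 preparations. CYTB, the cytochrome b gene of complex III, followed with 36.31%, and ND4L, ND1, COX2, ND3, mt-Rnr2, mt-Rnr1 and COX3 with 34.50 to 3.47%, and COX1, a catalytic subunit of cytochrome c oxidase, was the lowest with 2.58%. ATP6 was below ND5 in 2 of 8 preparations and CYTB in 7 of 8, so that neither neighbour was on the same side in every preparation, whereas ND4 was above and ND4L below in all 8. In the single libraries of 60 min ND5 ranked between 5th and 8th. On the H strand it ranked 11th of 15, within a run of genes from COX1 (0.479%) to ATP6 (0.399%) that differ by less than the SD over preparations of each of them. By the mean absolute difference of library means over all 24 libraries, the genes most like ND5 were CYTB (12.5 points), ATP6 (12.6) and ND4 (14.7) on the L strand, and COX3 (0.297), ND4L (0.297) and ND4 (0.312) on the H strand.

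**Figure D5:**
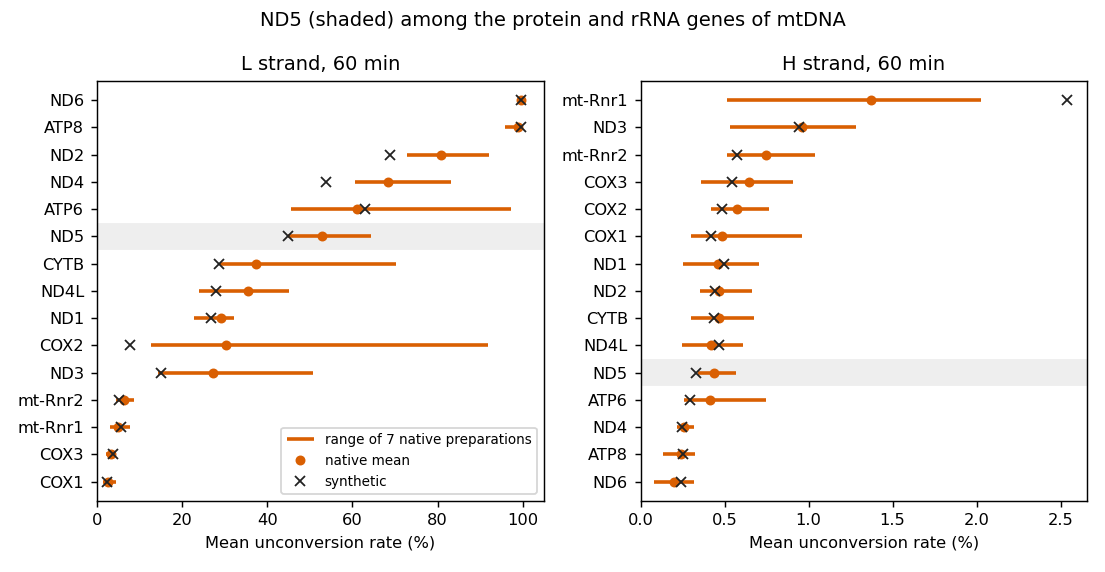
Mean unconversion rate (horizontal axes, in percent) of the 13 protein and 2 rRNA genes of mtDNA after 60 min, L strand on the left and H strand on the right, in order of the mean over 8 preparations. Bars span the 7 native preparations, circles are their means, crosses are synthetic mtDNA, and ND5 is shaded. ND5 lies 6th on the L strand, between ATP6 and CYTB, and 11th on the H strand.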

How the data were processed

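Mitochondrial and synthetic DNA was sequenced after bisulfite treatment. The submitters' processing notes name Trim Galore, Bismark and build mm10, and no versions are given there. The deposited values are, per cytosine, the unconverted share of its reads in percent, to 1 decimal, and its coverage, a read count that was not normalized. The authors' own rates exclude reads in which 90% or more of the cytosines were unconverted. That exclusion needs single reads, which were not analysed here, and the L-strand rates here are without it. Numbers of unconverted reads were taken as percent times coverage, rounded.

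Rates are means over sites with coverage of at least 10. The libraries hold 257028 to 2260572 calls, and none of their 276 pairs agreed in coverage at every site. A floor of 3 reads at the median depth of used sites corresponds, in the 60 min libraries, to 4.65 to 11.1% (L strand) and 0.327 to 2.63% (H strand). Wilson intervals, floors and Fisher's exact tests cover counting error only, since PCR reads without molecular identifiers and calls of the same read are not independent. Samples were grouped by their labels, and the replicate is the preparation. Exact two-sided tests over preparations were run in Python 3.11.15 (scipy 1.17.1) and adjusted over 19 tests. They cover the spread between preparations and not that between sites. Single sites were tested with Fisher's exact test, or limma 3.58.1 (R 4.3.3) on empirical logits with an offset of 0.5, adjusted over all sites of mtDNA. Libraries of different minutes come from the same preparation by their labels, and the deviations of neighbouring times correlated between -0.322 and 0.499. Whether preparations of equal number from different sources share animals or days is not given in the sources used here. Their 60 min deviations correlated between -0.583 and 0.515, so they were not treated as paired.

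Sites named are, per strand, the 3 with the highest mean among those covered in all 8 libraries, the 3 with the largest called native minus synthetic difference in each direction, and the 3 highest and lowest L-strand CG sites. The 3 highest L-strand sites, L11854, L11857 and L11861, had 100% in all 8 libraries. Windows named are the 2 highest and 2 lowest per strand. The members, lists and tests were chosen with earlier results of these data known. Alternatives changed the coverage minimum (20 or 30), the sites averaged, pooling, the libraries (40 min), the flank (10 nt), the offset (1), the site test, each preparation in turn and the block. Scripts were tested on simulated data. Reads of lambda DNA were not analysed here.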

Additional observations from a re-analysis of the deposited data

Results flagged for a closer look

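Of 24 groups of 4 or 7 native libraries examined for a library far from the others, 3 had one, where chance gives about 1 in 20. On the H strand of ND5, E1_15 stood apart among the 4 native libraries of 15 min. Its mean over sites was 10.897%, while the others lay between 3.60 and 3.67%, and its rate pooled over reads was 11.144%, while the others lay between 3.55 and 3.63%. The same library had the highest L-strand mean of that time, 54.97%. On the L strand, B1_05 had a median of 141 reads per ND5 cytosine, while the other native libraries of 5 min had 79 to 82.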

How the results depend on the processing

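Over 298 alternative values of 23 results, 255 kept their direction and their side of the threshold or, for results that are counts, stayed equal or close to the main count. Without sites of 50% or more, the sign turned for native minus synthetic on the L strand (-1.63 points), ESC minus tissue (1.51) and brain minus other native preparations (-2.86, exact permutation p = 0.0476), and the L-strand difference of ND5 from the rest of mtDNA was 1.22. Pooled calls turned the H-strand brain difference (0.0756) and the L-strand change from 15 to 40 min (2.08). The libraries of 40 min (5 preparations, smallest p 0.0625) kept the sign but not the threshold for L minus H strand (47.75 points), ND5 minus the rest (21.30 on L, -0.211 on H), CG minus CH (-33.04 and -0.0308) and guanine-rich minus guanine-poor surroundings (-58.60 and 0.122). Each of these had that smallest p, except CG minus CH on the H strand (exact sign-flip permutation test, p = 0.25). Over the sites covered in all 8 libraries of 60 min, the L-strand rise from 40 to 60 min was 1.74 points (exact permutation test, p = 0.0286, unpaired and unadjusted).

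Leaving out 1 preparation gave -9.41 to -4.64 points (L) and -0.0974 to 0.0151 points (H) for ESC minus tissue, where the H-strand sign turned without E1 (0.00486) or E2 (0.0151). Brain minus the other native preparations was -0.819 (without B2) to 13.37 on L and -0.0431 to 0.0181 on H, positive without E3 (0.0181) or B1 (0.0169). The change from 5 to 15 min was -28.96 to -24.12 on L and -29.31 to -26.30 on H, and from 15 to 40 min -2.50 to 0.903 (without E1) on L and -5.61 to -3.19 on H; with 3 preparations left, p cannot go below 0.1. With the preparation as a replicate block, the changes from 5 to 15 min (-26.31 on L, -27.35 on H) and from 15 to 40 min on H (-5.00) had an exact permutation p of 0.125. With the replicate number as a block, ESC minus tissue was -7.33 on L and -0.0974 on H, and no other call changed.

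The count of L-strand windows with every native preparation above S1_60 went from 6 to 2 and 1 (minimum of 20 and 30 reads), 2 (40 min) and 3 (sites covered in all 8), and that of the H strand from 1 to 5 (40 min), 2 (pooled calls) and 1 to 3 when preparations were left out, with 3 without E1. Limma on native against synthetic sites called 0 in place of 1. Synthetic mtDNA has 1 preparation, so its spread is unknown, and L-strand rates under the floor of 3 reads, and the 105 L-strand sites under 10 reads, are beyond the depth of these libraries.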
